A study of Rattus norvegicus with 9 samples.

Results

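The proteases that MCs store in their secretory granules were followed at the RNA level in RBL-2H3 cells, an MC model line derived from a basophilic leukemia of the rat. The 10 genes were fixed by symbol: *Cpa3*, *Tpsab1*, *Tpsb2*, *Cma1*, *Mcpt2*, *Mcpt8*, *Mcpt9*, *Mcpt10*, *Ctsg* and *Gzmb*. All 10 were found among the 38490 genes listed, and 8 of them were among the 18006 genes with a value. Expression was measured in 9 samples, which form the groups Ctrl, IgE/DNP (here DNP) and PF with 3 samples each. The DNP samples were sensitized for 12 h with anti-DNP IgE at 50 ng/mL and then given the antigen DNP-HSA at 100 ng/mL for 4 h. The PF samples had the same sensitization and antigen and, between them, 1 h of PF, an agent that the labels do not identify. One label field gives all PF samples 4 h of antigen, whereas another gives 4 h for replicate 1, 5 h for replicate 2 and 6 h for replicate 3. The Ctrl samples are called untreated in one field, while another repeats the sensitization and stimulation, so their exposure to IgE remains unclear. All samples came from 1 line grown in culture, although the labels also name peripheral blood as their tissue. The labels do not say whether replicates were separate cultures, so the p-values measure the spread between these samples, which may be technical.

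MC granules hold 3 kinds of protease: tryptases (*Tpsab1*, *Tpsb2*), chymases (*Cma1*, *Mcpt2* and relatives) and carboxypeptidase A3 (*Cpa3*). They are made as precursors, of which cathepsin C trims those of the chymases and granzymes, and are packed as active enzymes on the sulfated chains of the proteoglycan serglycin until degranulation. Tryptases cleave after basic residues, many but not all chymases after aromatic ones, and carboxypeptidase A3 removes residues from the C-terminal end. Stored enzyme can outlast its mRNA for a long time, and only mRNA was measured here.

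Values are FPKM, fragments counted relative to transcript length and to the mapped total, so that levels can be compared between genes. The 9 samples summed to between 573023 and 630069 FPKM, with a relative depth between 0.981 and 1.03 as read from the steps of 7 low genes. These genes were kept only where their non-zero values lay within 12% of the smallest. Larger differences in depth could therefore not have shown, and equal depth was not tested. Each sample was most like another of its own group by correlation. Of the 10 MC markers checked, all were above the 1 FPKM minimum, among them *Kit* (the receptor of stem cell factor) at between 216 and 289 FPKM and *Srgn* (serglycin) at between 2688 and 3004 FPKM. In DNP against Ctrl 3 of the 10 rose and 3 fell, and in PF against DNP 2 rose and 5 fell. Of all genes tested, 29.2% were called in the first comparison and 48.8% in the second. The neutrophil enzymes *Mpo*, *Elane* and *Prtn3*, which share a granule compartment with *Ctsg* in myeloid cells, had no value in any sample. Of the 6 T and NK cell markers, *Cd3d*, *Cd8a*, *Prf1* and *Klrd1* were at most 0.16 FPKM. *Prf1*, perforin, which accompanies *Gzmb* in cytotoxic cells, was at most 0.07 FPKM. The other 2, *Nkg7* and *Cd3e*, were present at 503 to 614 and 6.74 to 9.52 FPKM, and their part in the results was not tested. The B cell, macrophage, fibroblast and erythroid markers reached at most 1.01 FPKM, and the eosinophil markers at most 0.15 FPKM.

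Chymases and carboxypeptidase A3 were expressed in this line, whereas no level could be given for tryptase. *Tpsab1* and *Tpsb2*, the tryptase genes, had no value in any sample, and neither did *Tpsg1*, the transmembrane tryptase. A gene that was not detected and one that was not quantified cannot be told apart where the files hold no value. *Mcpt9*, a chymase-locus protease, was listed at 0, 0.20 and 0.21 FPKM in Ctrl, at 0 in all 3 DNP samples, and at 0.20, 0 and 0.37 FPKM in PF. *Ctsg*, cathepsin G, was listed at 0.21, 0.14 and 0 FPKM in Ctrl, at 0.05, 0.15 and 0.28 FPKM in DNP, and at 0, 0.07 and 0 FPKM in PF. Both were far below the 1 FPKM minimum, so neither entered the main limma test. Their groups overlapped or lay at 0. The lowest p of the exact two-sided permutation test was 0.4 for *Mcpt9* and 0.2 for *Ctsg*. FPKM holds no counts, so the smallest level that could have been detected is unknown. The other 6 members, *Mcpt2*, *Cpa3*, *Cma1*, *Gzmb*, *Mcpt8* and *Mcpt10*, had a mean of at least 1 FPKM and entered the main limma test.

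*Mcpt2*, by its name the chymase of rat mucosal MCs, was the most abundant member in every sample. In Ctrl it was above 97.6% of all genes with a value and made up 60.7% ± 0.837 (SD, n = 3) of the summed FPKM of the members. *Cpa3* came next, followed by *Cma1* (chymase 1), *Gzmb* (granzyme B) and *Mcpt8*, a protease known from basophils. In Ctrl these last 3 had overlapping ranges, with means of 20.6, 19.1 and 18.6 FPKM. In DNP and PF *Cma1* stood apart above both others, which still overlapped each other. *Mcpt10* was the sixth in each group, apart from its neighbours in Ctrl and DNP but overlapping *Gzmb* and *Mcpt8* in PF. Together the members summed to 329 ± 5.34 FPKM in Ctrl, 226 ± 5.80 in DNP and 238 ± 8.09 in PF (SD, n = 3 each).

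**Figure D1:**
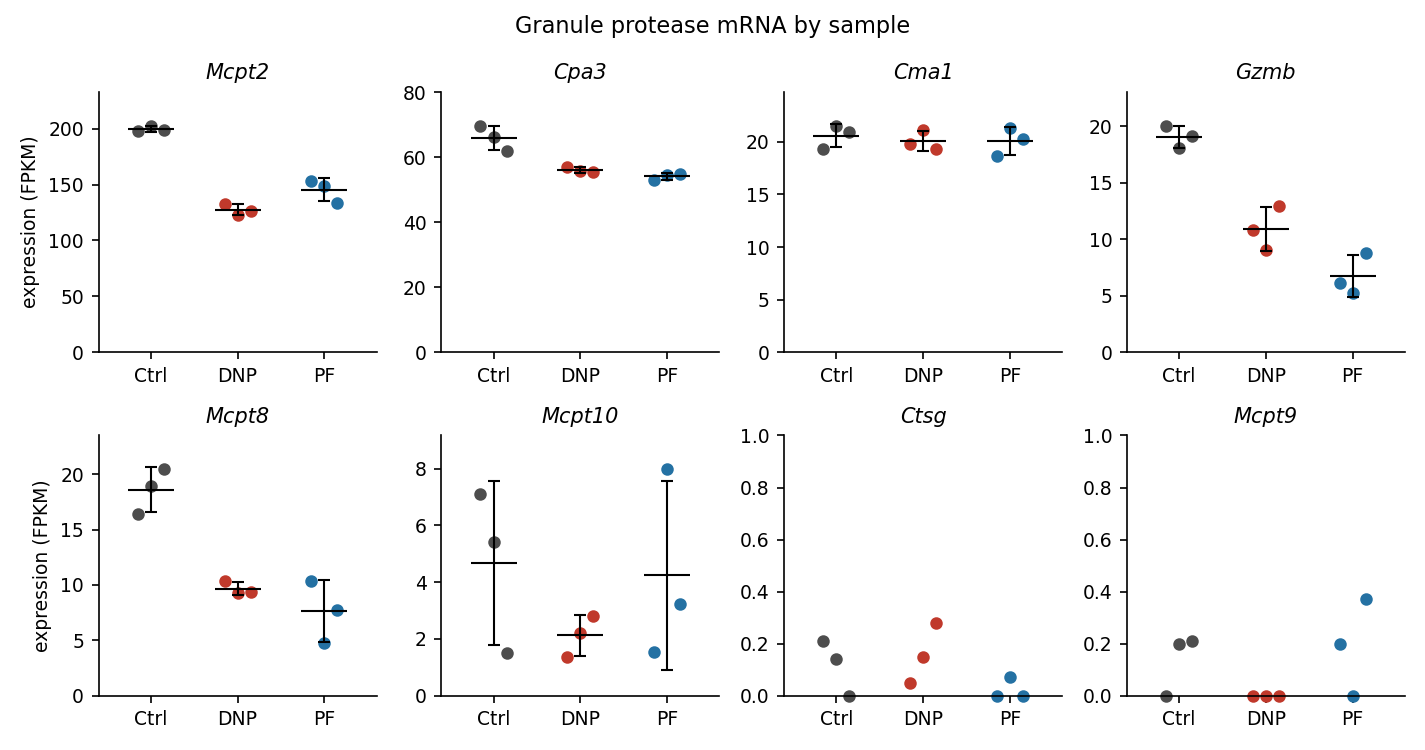
Expression in FPKM of the 8 members with a value, 1 panel a gene, in the 3 Ctrl, 3 DNP and 3 PF samples. Points are samples, long bars are means and short bars 1 SD, left out for Ctsg and Mcpt9, which hold values listed at 0. Mcpt2, Cpa3, Gzmb and Mcpt8 have all Ctrl points above all DNP and PF points, Cma1 lies between 18.6 and 21.5 FPKM throughout, and the 3 groups of Mcpt10 overlap.

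The first comparison was of stimulated with control cells. Of the 6 members tested, 4 fell in DNP against Ctrl (*Mcpt2*, *Cpa3*, *Gzmb* and *Mcpt8*), none rose, and *Cma1* and *Mcpt10* did not pass the test. Over all 10392 genes tested, limma called 29.2% at an adjusted p of at most 0.05, and 14.4% were called lower. The median log2 fold change of the 6 members was -0.68, beside -0.008 over all genes tested. In bulk RNA, fewer cells that express a gene and less RNA per cell cannot be told apart.

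*Mcpt2* was at 198, 202 and 199 FPKM in Ctrl and at 133, 123 and 127 FPKM in DNP. Every DNP sample lay below every Ctrl sample, and the DNP mean was 63.8% of the Ctrl mean. On the log2(FPKM + 1) scale, on which all fold changes are given and which understates those of low genes, the difference was -0.64 (SE 0.036, 95% interval -0.73 to -0.56, limma adjusted p = 1.88e-05). *Cpa3*, the carboxypeptidase, was at 69.6, 66.2 and 62.0 FPKM in Ctrl and at 57.1, 55.9 and 55.5 FPKM in DNP. The groups did not overlap, but the drop was the smallest of the 4, to 85.1% of the Ctrl mean. The log2 fold change was -0.23 (SE 0.0454, 95% interval -0.33 to -0.12, limma adjusted p = 0.00747).

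*Gzmb* encodes a serine protease that cleaves after aspartate. It was at 20.0, 18.1 and 19.1 FPKM in Ctrl and at 10.8, 9.04 and 12.9 FPKM in DNP, with no overlap. The DNP mean was 57.2% of the Ctrl mean, a log2 fold change of -0.76 (SE 0.107, 95% interval -1.01 to -0.52, limma adjusted p = 0.00161). *Mcpt8* was at 16.4, 18.9 and 20.4 FPKM in Ctrl and at 10.4, 9.31 and 9.33 FPKM in DNP. The ranges were far apart, with DNP at 52% of the Ctrl mean, a log2 fold change of -0.87 (SE 0.0814, 95% interval -1.06 to -0.69, limma adjusted p = 2.68e-04). For each of these 4 genes the exact two-sided permutation test gave p = 0.1, the smallest that 3 samples against 3 allow. Groups that did not overlap were found for 45.8% of all genes tested, and for 23.4% with DNP the lower.

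*Cma1* was at 19.4, 21.5 and 20.9 FPKM in Ctrl and at 19.8, 21.1 and 19.3 FPKM in DNP. The groups overlapped almost fully, and the 95% interval of the log2 difference ran from -0.16 to 0.09 (limma adjusted p = 0.673), which does not reach the changes of *Mcpt2*, *Gzmb* or *Mcpt8*. *Mcpt10*, a chymase-locus protease, was at 7.11, 5.41 and 1.5 FPKM in Ctrl and at 1.37, 2.21 and 2.79 FPKM in DNP. Ctrl replicate 3 lay within the DNP range, apart from the other two Ctrl samples. The log2 difference was -0.72 with a 95% interval of -1.62 to 0.17 (limma adjusted p = 0.198), and without Ctrl replicate 3 it was -1.23 and passed the test (adjusted p = 0.00319).

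**Figure D2:**
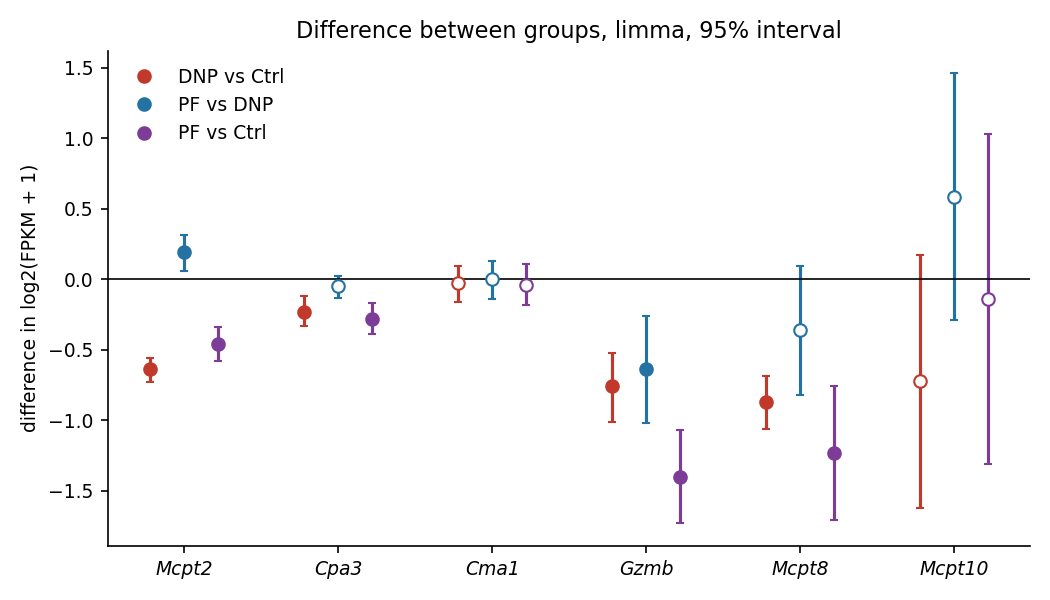
Difference in log2(FPKM + 1) of the 6 members tested in DNP against Ctrl, PF against DNP and PF against Ctrl, as estimated by limma from 3 samples a group. Bars are 95% intervals, filled points have an adjusted p of at most 0.05 and open points do not. In DNP against Ctrl the filled points run from -0.87 (Mcpt8) to -0.23 (Cpa3), Cma1 stays near 0 in each comparison, and Gzmb is filled below 0 in all 3.

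The second comparison was of PF with DNP cells, which share sensitization and antigen. Of the 6 members tested, *Mcpt2* rose and *Gzmb* fell, and the other 4 did not pass the test. Over all 10329 genes tested, 48.8% were called, 18.1% higher and 30.7% lower, so the share of members called was below that of all genes. The median of the 6 members was -0.03, beside -0.038 over all genes tested. Scaling all samples to equal FPKM sums moved the all-gene median to -0.128, whereas scaling by median ratios put it at 0.019, so small differences in this comparison depend on the scaling. The 4 falls in DNP against Ctrl and the fall of *Gzmb* here kept their call under both scalings.

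*Gzmb* was at 6.15, 5.25 and 8.82 FPKM in PF, against 9.04 to 12.9 FPKM in DNP. The highest PF sample lay just below the lowest DNP sample, and the PF mean was 61.8% of the DNP mean. The log2 fold change was -0.64 (SE 0.168, 95% interval -1.02 to -0.26, limma adjusted p = 0.0125). With no filter on low values the adjusted p was 0.0512. *Mcpt2* was at 153, 149 and 133 FPKM in PF, all above the DNP samples, though PF replicate 3 exceeded the highest DNP sample by little. The PF mean was 114% of the DNP mean, a log2 fold change of 0.19 (SE 0.0535, 95% interval 0.06 to 0.31, limma adjusted p = 0.0188). The call was lost with no filter on low values (adjusted p = 0.0551), after scaling to equal FPKM sums (0.09, adjusted p = 0.171), and without DNP replicate 2 (adjusted p = 0.0664), DNP replicate 3 (0.0521), PF replicate 1 (0.0679) or PF replicate 2 (0.0574).

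*Mcpt8* was at 10.4, 4.78 and 7.70 FPKM in PF, so that replicate 1 lay in the DNP range and the other two below it. Its log2 difference was -0.36 (95% interval -0.82 to 0.09, limma adjusted p = 0.167). Without PF replicate 1 it was -0.59 (adjusted p = 0.0178), and with PF replicate 1 as the only PF sample, the one that both label fields give 4 h of antigen, it was 0.09. With 1 sample in an arm, here and below, the spread comes from the other group alone, so only the value is given. *Mcpt10* spread even more widely in PF, at 1.55, 7.97 and 3.23 FPKM, and its log2 difference of 0.58 had a 95% interval of -0.29 to 1.46 (limma adjusted p = 0.242). Without PF replicate 1 it was 1.01 (adjusted p = 0.0324), and with that sample alone the value was -0.27.

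*Cpa3* was at 53.0, 54.4 and 54.9 FPKM in PF, just below the DNP range. The log2 difference was -0.05 (95% interval -0.13 to 0.02, limma adjusted p = 0.221), after scaling to equal FPKM sums -0.15 (adjusted p = 0.00867), and after scaling by median ratios 0.01 (adjusted p = 0.825). *Cma1* was at 18.6, 21.3 and 20.3 FPKM in PF, overlapping both other groups although replicate 1 was the lowest of all samples, with a 95% interval of the log2 difference from -0.14 to 0.13 (limma adjusted p = 0.991). In this comparison the exact two-sided permutation test gave p = 0.1, its smallest possible value, for *Gzmb*, *Mcpt2* and *Cpa3*. Between PF and DNP, groups that did not overlap were found for 57.6% of all genes tested, with PF the lower for 35.4%.

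The third comparison, of PF with Ctrl cells, uses the same PF and Ctrl samples as the other two and is given for its own values. *Mcpt2*, *Cpa3*, *Gzmb* and *Mcpt8* were lower in PF, none of the 6 was higher, and over all 10361 genes tested 57.7% were called, 23.1% higher and 34.6% lower. The groups of these 4 genes did not overlap, which held for 64.8% of all genes tested, with PF the lower for 38.2%. For each of the 4 the exact two-sided permutation test gave p = 0.1, its smallest possible value. *Gzmb* reached 35.3% of the Ctrl mean, a log2 fold change of -1.40 (SE 0.144, limma adjusted p = 7.10e-05). *Mcpt8* reached 41%, at -1.23 (SE 0.209, limma adjusted p = 0.00115), and the value was -0.78 with PF replicate 1 as the only PF sample. *Mcpt2* stood at 72.7% and *Cpa3* at 82% of the Ctrl mean, with log2 fold changes of -0.46 (SE 0.0521, limma adjusted p = 1.22e-04) and -0.28 (SE 0.0481, limma adjusted p = 0.00124). *Cma1* was at 97.5% and *Mcpt10* at 90.9% of the Ctrl mean, and neither passed the test (limma adjusted p = 0.655 and 0.829).

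Except for *Cpa3* on chromosome 2 and the tryptases on chromosome 10, the members lie among other genes on chromosome 15 in the chymase locus, a cluster of serine protease genes that grew by duplication in rodents. In the RefSeq table of the GRCr8 assembly, used here for gene order because the files were made on rn6, the stretch from *Cma1* to *Gzmb* holds 29 protein-coding genes, of which 16 had a value and 10 had a mean of at least 1 FPKM in Ctrl. *Cma1* forms one end, and *Gzmb* the other. The gene that the files call *Mcpt2* is named *Mcpt1* in that table, and the one they call *Mcpt1* is named *Vch*, so both are given here by the names in the files. In GRCr8 the synonyms of *Mcpt2* include both rMCP-1 and rMCP-2, so its description as the mucosal chymase rests on the name alone. Of 28 other granule serine proteases looked for, 24 were listed, 12 had a value and 5 could be tested. In DNP against Ctrl 4 of these 5 fell and none rose, with a median log2 fold change of -0.59. Of all genes tested, 14.4% were called lower.

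*Mcpt8l2* and *Mcpt8l3*, close relatives of *Mcpt8*, fell from 19.4 to 11.6 FPKM (log2 fold change -0.69, limma adjusted p = 0.00157) and from 7.16 to 4.28 FPKM (-0.63, limma adjusted p = 0.00172). *Mcpt3* fell from 2.47 to 1.31 FPKM (-0.59, limma adjusted p = 0.00492), and *Gzmbl2*, a *Gzmb* relative, from 16.1 to 10.7 FPKM (-0.56, limma adjusted p = 0.0116). The fifth, *Mcpt1*, had means of 9.27 and 6.21 FPKM (-0.48, limma adjusted p = 0.0655). It was at 10.4 and 11.0 FPKM in Ctrl replicates 1 and 2 and at 6.39 FPKM in Ctrl replicate 3, the same sample that was low for *Mcpt10*, and without it passed the test (-0.70, adjusted p = 0.00125). In PF against DNP limma called none of the 5 (1 had an unadjusted p under 0.05), with a median of 0.03. Of all genes tested there, 48.8% were called. In PF against Ctrl the same 4 genes were lower and *Mcpt1* was not called, beside 34.6% of all genes tested called lower. For *Gzmbl2* that call (-0.43, limma adjusted p = 0.0178) was lost with no filter on low values (adjusted p = 0.0553) and without Ctrl replicate 3 (adjusted p = 0.0523).

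**Figure D3:**
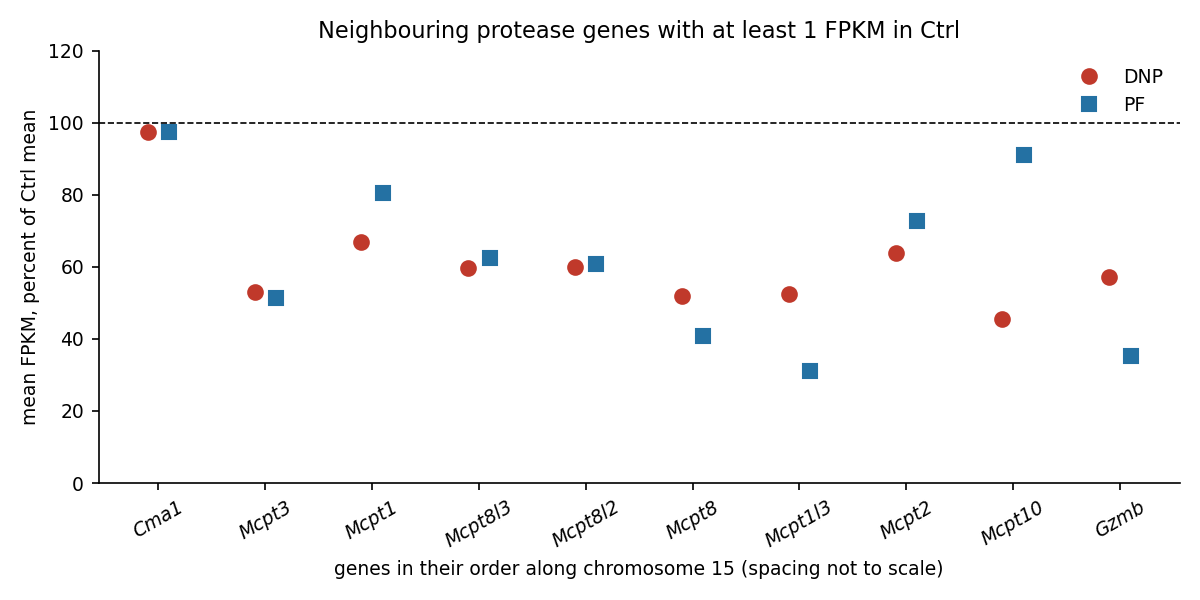
Mean FPKM in DNP (circles) and PF (squares) as percent of the Ctrl mean, for the 10 genes of the chymase locus with at least 1 FPKM in Ctrl, in their order along the chromosome. Cma1, at the left end, is at 97.5% in both groups, and the DNP means of the other 9 lie between 45.4% (Mcpt10) and 67% (Mcpt1), of which Mcpt1, Mcpt10 and the untested Mcpt1l3 were not called.

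Reads of similar genes can be split between them, so the single values of *Mcpt8* and the *Mcpt8*-like genes, and of *Gzmb* and *Gzmbl2*, may be less certain than their sums. Their transcripts were not compared here. The sum of *Mcpt8*, *Mcpt8l2* and *Mcpt8l3* was 45.1 ± 1.29 FPKM in Ctrl, 25.5 ± 1.16 in DNP and 23.8 ± 3.16 in PF (SD, n = 3 each). In Ctrl the sum varied by 2.86% (SD over mean), *Mcpt8* alone by 10.9% and *Mcpt8l2* by 14.6%. The Ctrl sample lowest in *Mcpt8* was the highest in *Mcpt8l2*. In DNP the sum varied by 4.53%, *Mcpt8* by 6.33% and *Mcpt8l2* by 7.09%. In PF the sum varied by 13.3% and *Mcpt8* by 36.7%, but *Mcpt8l2* by only 3.85%. Whether reads were split between the copies was not tested. Tested as a sum, the copies gave a log2 fold change of -0.80 in DNP against Ctrl (SE 0.0449, limma adjusted p = 1.86e-05) and of -0.10 in PF against DNP (SE 0.0821, limma adjusted p = 0.337). The sum of *Gzmb* and *Gzmbl2* was 35.2 ± 1.33 FPKM in Ctrl, 21.6 ± 1.16 in DNP and 18.6 ± 1.51 in PF (SD, n = 3 each). Its log2 fold change was -0.68 in DNP against Ctrl (SE 0.0505, limma adjusted p = 9.62e-05). Between PF and DNP it was -0.21 (SE 0.0648, limma adjusted p = 0.0252), beside -0.64 for *Gzmb* alone, and *Gzmbl2* had means of 11.8 FPKM in PF and 10.7 FPKM in DNP. These sums were formed after the data had been seen.

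**Figure D4:**
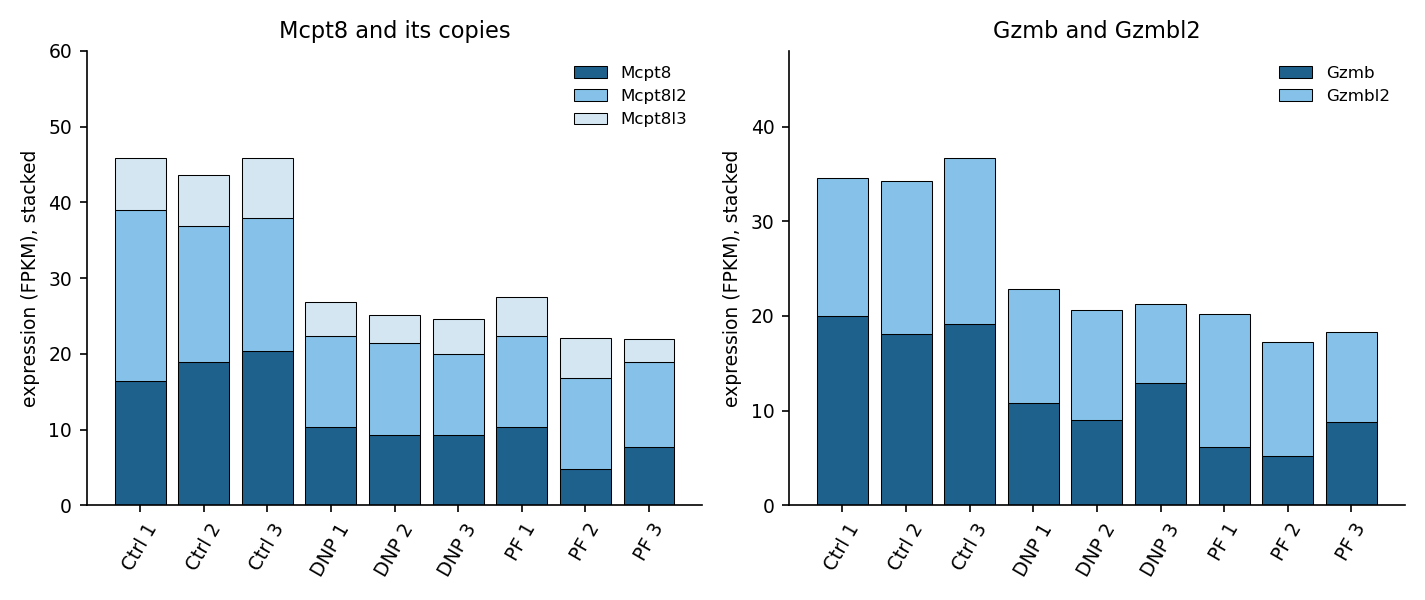
Stacked FPKM in each of the 9 samples for Mcpt8 with Mcpt8l2 and Mcpt8l3 (left) and for Gzmb with Gzmbl2 (right). Bar heights are sums over the copies. The left bars stand between 43.6 and 45.9 FPKM in Ctrl, 24.6 and 26.8 in DNP, and 21.9 and 27.5 in PF, and the right bars between 34.2 and 36.7, 20.6 and 22.9, and 17.2 and 20.2.

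Sequences were compared at the starts of the genes only. *Mcpt8* and *Mcpt9* are printed because they share nearly all letters of the promoter window, 250 bases before to 50 after the start, but not their level: 18.6 FPKM for *Mcpt8* in Ctrl, and at most 0.37 FPKM for *Mcpt9* in any sample. Over 292 aligned bases 283 were identical (96.9%), with 9 substitutions and no gap. *Mcpt9* was not among the copies summed above, and how reads were assigned between it and *Mcpt8* was not tested. Both are from RefSeq on GRCr8, 5′ to 3′, the first at chr15:33769399-33769698 (plus strand) and the second at chr15:33827180-33827479 (plus strand). Capitals mark bases that differ and the unpaired end of each window.
Mcpt8: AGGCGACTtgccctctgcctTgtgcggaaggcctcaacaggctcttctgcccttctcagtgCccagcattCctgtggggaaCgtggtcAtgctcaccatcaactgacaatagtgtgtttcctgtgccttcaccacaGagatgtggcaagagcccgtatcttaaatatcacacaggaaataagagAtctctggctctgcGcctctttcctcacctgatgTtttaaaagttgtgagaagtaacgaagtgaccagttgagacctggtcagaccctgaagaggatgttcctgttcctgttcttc
Mcpt9: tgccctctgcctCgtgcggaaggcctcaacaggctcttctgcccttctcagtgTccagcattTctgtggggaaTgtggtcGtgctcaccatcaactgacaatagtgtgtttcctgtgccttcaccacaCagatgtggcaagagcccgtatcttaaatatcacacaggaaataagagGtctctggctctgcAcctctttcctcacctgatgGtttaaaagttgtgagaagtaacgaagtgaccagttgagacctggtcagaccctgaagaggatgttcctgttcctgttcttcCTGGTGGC

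*Mcpt8l2*, which had 19.4 FPKM in Ctrl, was as close to *Mcpt8* (96.8% of 282 bases) and to *Mcpt9* (97.2% of 290 bases), and *Mcpt8l3* was 95.2% identical to *Mcpt8* over 250 bases. The windows of *Mcpt2* and *Mcpt1* were 87.7% identical. No windows were available for *Mcpt10* and *Gzmbl2*. Each window was searched on both strands for 4 words that MC transcription factors are known to bind. Among the 33469 promoters of the same length in the table, 11.6% hold AGATAA, a word read by zinc finger factors such as *Gata2*. The AP-1 word TGANTCA, where N is any base, is in 7.33% of them. The E-boxes read by factors such as MITF are CACGTG, held by 6.42%, and the less strict form CATGTG, held by 14%.

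*Cpa3*, *Cma1* and *Gzmb* are printed because they differ in response, with DNP means at 85.1%, 97.5% and 57.2% of the Ctrl mean (*Cma1* not called), and because each holds searched words, in capitals. *Cpa3* (chr2:104673188-104673487, minus strand) has AGATAA 55 bases before the start and the E-box CATGTG read on the opposite strand (CACATG) 144 bases before it. *Cma1* (chr15:33390084-33390383, minus strand) has AGATAA 64 bases before the start. *Gzmb* (chr15:34462420-34462719, minus strand) has the AP-1 word TGAGTCA 151 bases before the start, an E-box on the opposite strand (CACATG) 215 bases before it and CATGTG 45 bases before it.
Cpa3: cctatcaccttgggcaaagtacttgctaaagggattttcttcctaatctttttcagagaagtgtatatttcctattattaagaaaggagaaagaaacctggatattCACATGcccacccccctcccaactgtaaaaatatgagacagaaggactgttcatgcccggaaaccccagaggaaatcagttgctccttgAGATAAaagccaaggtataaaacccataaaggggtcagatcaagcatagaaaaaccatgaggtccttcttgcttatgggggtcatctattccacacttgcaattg
Cma1: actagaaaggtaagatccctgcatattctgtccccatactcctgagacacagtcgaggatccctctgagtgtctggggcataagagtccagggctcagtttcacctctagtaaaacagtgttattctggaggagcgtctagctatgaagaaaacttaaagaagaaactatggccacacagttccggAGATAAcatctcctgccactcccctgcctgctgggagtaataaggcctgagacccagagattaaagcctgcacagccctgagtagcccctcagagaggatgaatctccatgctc
Gzmb: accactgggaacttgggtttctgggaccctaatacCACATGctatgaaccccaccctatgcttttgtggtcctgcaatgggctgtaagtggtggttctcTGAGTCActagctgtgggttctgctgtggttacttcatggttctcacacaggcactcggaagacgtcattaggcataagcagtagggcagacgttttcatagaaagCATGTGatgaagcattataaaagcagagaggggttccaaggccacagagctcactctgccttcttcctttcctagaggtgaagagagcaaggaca

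The windows of *Mcpt2*, *Mcpt8*, *Mcpt9* and *Ctsg* held none of the 4 words. Both tryptase genes, which had no value, hold 1 each, TGAGTCA 103 bases before the start of *Tpsab1* and CATGTG 209 bases before that of *Tpsb2*. A word is a description of letters and was not tested for binding.

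The genes whose pattern over the 9 samples was most like each member were found by Pearson's r of log2(FPKM + 1) among 10504 genes, a description in which much of the likeness comes from the 3 groups. *Mcpt2* was most like *Hmox1*, heme oxygenase 1 (r = 0.991), and *Ddit4* (r = 0.982), and *Cpa3* most like *Scd2* (r = 0.983) and *Bco1* (r = 0.982). *Gzmb* was most like *Sgpl1*, sphingosine-1-phosphate lyase (r = 0.988), and *Ubl3* (r = 0.987). *Mcpt8* came closest to *RGD1560510* (r = 0.972) and *Xkr8* (r = 0.968). *Bco1* and *RGD1560510* were low, with means of 1.29 and 1.25 FPKM in Ctrl and below the 1 FPKM minimum in DNP and PF. The nearest genes were less alike for *Cma1* (*Mpg*, r = 0.892, and *Rcl1*, r = 0.861) and *Mcpt10* (*Nmral1*, r = 0.888, and *Hspb11*, r = 0.874).

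No other carboxypeptidase came near *Cpa3*. Of the 15 looked for, 14 had a value, and *Agbl5*, a deglutamylase of tubulin, was the only one that could be tested, at means of 1.34, 1.37 and 1.02 FPKM in Ctrl, DNP and PF. It was not called in any comparison by limma, with unadjusted p under 0.05 for PF against DNP and PF against Ctrl.

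Among genes that process and store the proteases, *Chst12*, *Ndst2*, *Hs6st1* and *Ctsc* fell in PF against DNP. All 17 looked for had a value. In DNP against Ctrl 3 rose and 1 fell of 13 tested, with a median of -0.01. In PF against DNP 3 rose and 6 fell of 12 tested, with a median of -0.18. Over all genes tested, 14.7% were called higher and 14.4% lower in DNP against Ctrl, and 18.1% and 30.7% in PF against DNP. *Chst12*, a sulfotransferase of chondroitin chains, was at 67.3, 62.5 and 65.6 FPKM in DNP and at 27.9, 29.9 and 27.3 FPKM in PF. Every PF sample lay below every DNP sample, with a log2 fold change of -1.17 (SE 0.0461, limma adjusted p = 4.79e-07). *Ndst2*, the N-deacetylase and N-sulfotransferase needed for heparin in MCs, was at 11.7, 13.7 and 13.1 FPKM in DNP and at 5.44, 5.15 and 5.73 FPKM in PF. Its log2 fold change was -1.10 (SE 0.0713, limma adjusted p = 4.89e-06).

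*Ctsc*, cathepsin C, which activates granule serine proteases, fell from 109 FPKM in DNP to 84.3 FPKM in PF (-0.37, SE 0.034, limma adjusted p = 4.11e-05). *Hs6st1*, a 6-O-sulfotransferase, fell from 2.18 to 1.07 FPKM (-0.62, limma adjusted p = 0.00167). None of *Ndst2*, *Ctsc* and *Hs6st1* passed the test in DNP against Ctrl, where *Chst12* was called higher by 0.14 (limma adjusted p = 0.0257), a call lost in the blocked fit (adjusted p = 0.0504) and without Ctrl replicate 1, Ctrl replicate 2, DNP replicate 1 or DNP replicate 3 (adjusted p from 0.0506 to 0.0945), and in limma without trend (adjusted p = 0.0598). *Ext1* and *Ext2*, which together extend the heparan chain, rose in DNP against Ctrl by 0.41 and 0.26 (limma adjusted p = 0.00133 and 0.00714). From DNP to PF *Ext1* fell (-0.29, limma adjusted p = 8.95e-04) while *Ext2* was called higher (0.14, limma adjusted p = 0.0452), a call lost in the blocked fit (adjusted p = 0.0751) and without DNP replicate 1, DNP replicate 3 or any 1 of the PF replicates (adjusted p from 0.0551 to 0.143). It was also lost with no filter on low values (adjusted p = 0.068), after scaling to equal FPKM sums (0.05, adjusted p = 0.5) and in limma without trend (adjusted p = 0.0563). The core protein *Srgn* had means of 2780, 2843 and 2914 FPKM in Ctrl, DNP and PF.

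Among inhibitors of proteases, *Serpinb1a* rose in DNP against Ctrl. Of 18 looked for, 16 had a value and 6 were tested. In DNP against Ctrl 1 rose and 4 fell, and in PF against DNP 5 rose and 1 fell, with medians of -0.19 and 0.15. The shares of all genes tested were 14.7% higher and 14.4% lower in the first comparison, and 18.1% and 30.7% in the second. *Serpinb1a*, an inhibitor of chymotrypsin- and elastase-like proteases, was at 274, 280 and 274 FPKM in Ctrl and at 541, 525 and 540 FPKM in DNP. The DNP mean was 194% of the Ctrl mean, a log2 fold change of 0.95 (SE 0.0298, limma adjusted p = 8.42e-07), opposite in sign to those of the members called. In PF it was at 468 FPKM, lower than in DNP (log2 fold change -0.19, limma adjusted p = 0.0024).

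*Lxn*, latexin, an inhibitor of carboxypeptidases of the A family, fell from 68.5 to 51.3 FPKM in DNP (-0.41, limma adjusted p = 0.00248) and was at 57.5 FPKM in PF, called higher than DNP (0.16, limma adjusted p = 0.0118) except after scaling to equal FPKM sums (0.06, adjusted p = 0.201). *Spint2*, a Kunitz-type inhibitor, fell from 11.7 to 7.87 FPKM in DNP (-0.52, limma adjusted p = 0.00256) and was at 10.0 FPKM in PF (0.32 against DNP, limma adjusted p = 0.0142), a call lost without PF replicate 1 (adjusted p = 0.0504). The other 3 inhibit cysteine cathepsins. *Cstb* and *Cst7* fell in DNP (-0.23 and -0.15, limma adjusted p = 0.00703 and 0.0179), the second call being lost without Ctrl replicate 2, DNP replicate 2 or DNP replicate 3 (adjusted p from 0.051 to 0.0659) and in limma without trend (adjusted p = 0.0529). Compared with DNP, *Cst3*, *Cst7* and *Cstb* were called higher in PF by 0.26, 0.14 and 0.13 (limma adjusted p = 0.00251, 0.00881 and 0.0385). After scaling to equal FPKM sums, *Cst7* (0.04, adjusted p = 0.317) and *Cstb* (0.03, adjusted p = 0.583) were not called, and *Cstb* was not called either in the blocked fit (adjusted p = 0.059) or without DNP replicate 2, DNP replicate 3, PF replicate 2 or PF replicate 3 (adjusted p from 0.0793 to 0.13). The *Cstb* call was also lost with no filter on low values (adjusted p = 0.0889) and in limma without trend (adjusted p = 0.0913).

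**Figure D5:**
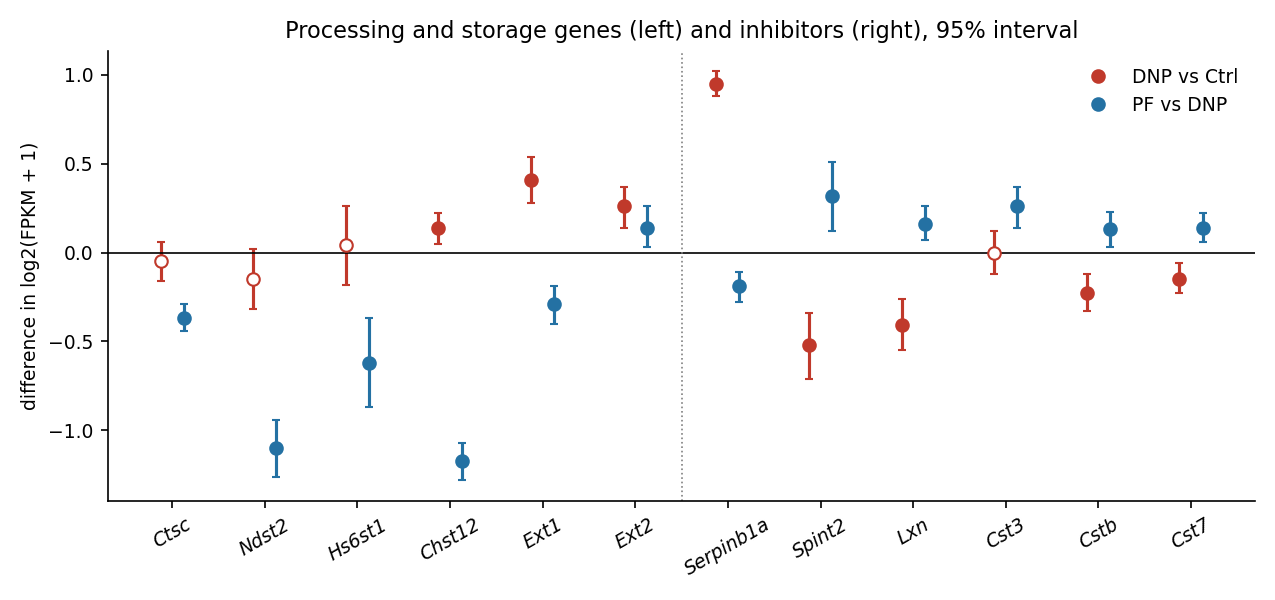
Difference in log2(FPKM + 1) in DNP against Ctrl and PF against DNP for 6 processing and storage genes (left of the dotted line) and 6 protease inhibitors (right), from limma on 3 samples a group. Bars are 95% intervals and filled points have an adjusted p of at most 0.05. Chst12 (-1.17) and Ndst2 (-1.10) are lowest in PF against DNP, and Serpinb1a (0.95) is highest in DNP against Ctrl.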

How the data were processed

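RNA-seq of 9 RBL-2H3 samples was used, 3 each of Ctrl, DNP and PF, grouped by sample title. Per the labels and the paper's methods, the authors mapped filtered reads with HISAT2 2.0.4, aligned them with Bowtie2 2.2.5 and quantified genes with RSEM 1.2.12 on rn6. The labels name Illumina library protocols and the paper a BGISEQ-500 sequencer. The authors deposited 1 value per gene and sample, read here as FPKM because the values have decimals and unequal sums, though the heading names no unit. Genes whose reads are shared by copies, and use of strand, are not described in the sources used here. FPKM holds no counts, so read depth is unknown and precision rests on 3 replicates.

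Samples were joined by gene identifier. A gene entered the test where 3 or more of the 6 samples compared had 1 FPKM or more. Genes were tested with limma 3.58.1 in R 4.3.3 (lmFit, eBayes with trend) on log2(FPKM + 1), each comparison on its own samples, with Benjamini-Hochberg adjustment over all genes tested and a threshold of 0.05. Members also had an exact two-sided permutation test. The test was checked on simulated data. Alternatives were a pseudocount of 0.1, no filter, all 3 groups in the fit, a replicate block, scaling by median ratios or to equal FPKM sums, no trend, a threshold of 0.01, each sample left out, and PF replicate 1 as the only PF sample. Summing of copies was added after seeing the data. Members and gene lists were chosen with earlier results of these data known. All members are named, and from each list at most 6 genes, by the size of the fold change among those called in DNP against Ctrl or PF against DNP. *Mcpt1*, *Mcpt1l3*, *Agbl5* and *Tpsg1* and the markers *Kit*, *Srgn*, *Nkg7* and *Cd3e* were named after their values were seen.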

Additional observations from a re-analysis of the deposited data

How the results depend on the processing

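The number of members called was 4 in DNP against Ctrl under every alternative other than leaving out a sample, which gave 4 to 5, and 4 in PF against Ctrl throughout. In PF against DNP it was 2, but 0 with no filter on low values and 0 at a threshold of 0.01, and 1 to 3 when single samples were left out. After scaling to equal FPKM sums it was again 2, but with *Cpa3* in place of *Mcpt2*. In the main fit 29.2% of all genes tested were called in DNP against Ctrl, 48.8% in PF against DNP and 57.7% in PF against Ctrl. Shares of all genes under the alternatives are not given here. The directions that turned belonged to differences that had not passed the test. Between PF and DNP, scaling by median ratios gave 0.01 for *Cpa3* and 0.06 for *Cma1*, and scaling to equal FPKM sums gave -0.07 for *Mcpt8l2* and -0.05 for *Mcpt8l3*. With PF replicate 1 as the only PF sample, *Mcpt8* was at 0.09 and *Mcpt10* at -0.27. With single samples left out, *Cma1* ranged from -0.04 to 0.05, *Mcpt8l2* from -0.03 to 0.05, *Mcpt8l3* from -0.09 to 0.24 and *Gzmbl2* from -0.02 to 0.27. In PF against Ctrl, *Cma1* was at 0.03 after scaling by median ratios and ranged from -0.08 to 0.02 with samples left out, and *Mcpt10* ranged from -0.65 to 0.28. The cause was not tested. Of the other single-gene values, 738 kept direction and side of the threshold, 65 lost the call and 6 gained it.

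Replicate numbers were shared by the groups. Correlations of same-numbered samples' deviations ran from -0.0822 to 0.189 and were not above 0.1 for every pair, so the main test did not pair the samples. With 3 samples a group, such correlations cannot exclude a pairing. All 3 PF samples correlated best with their own number against Ctrl, a hint from the data only. With the replicate block, 4 members were called in DNP against Ctrl, 2 in PF against DNP and 4 in PF against Ctrl. The main fit called 29.2%, 48.8% and 57.7% of all genes tested, and the shares with the block are not given here. What depth limits cannot be given, since FPKM holds no counts.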
